A study of Mus musculus with 2 samples.

Results

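The genes described here make cholesterol, make fatty acids, or carry sterol out of macrophages, and they were read from 2 arrays of thioglycolate-elicited peritoneal macrophages, 1 hybridised with RNA of untreated cells and 1 with RNA of cells treated with CSF1. The list named 50 genes in 3 arms, with 21 genes of sterol synthesis, 15 of fatty acid synthesis and 14 of sterol export and LXR signalling. Probe sets annotated to exactly 1 of these genes represented 47 of them, among 18194 genes on the array with a single-gene probe set, and the 47 genes had 106 probe sets. The signals of Acat2 (cytosolic acetoacetyl-CoA thiolase), Nr1h2 (LXR beta) and Soat1 (the enzyme that esterifies cholesterol for storage) were not analysed here. The brightest probe set, by mean log2 signal, stood for each gene, and all 47 genes were above the background level on both arrays.

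Both cultures came from 8-week-old male C57BL6 wild-type mice given thioglycolate medium, an irritant that draws inflammatory macrophages into the peritoneal cavity, and lavaged a week later. The cells were grown to 80% confluence in medium with 10% FBS, and then kept for 12 h without addition (control) or with 100 ng/ml CSF1, the growth factor that acts through the receptor Csf1r. Serum, a source of lipoprotein cholesterol, was in the medium of both groups. The labels do not say how many animals gave cells or whether both samples shared them. With 1 array per group there is no replicate check and no test, and precision is limited by that number. The SD printed with a gene is the spread among its own probe sets, and it covers neither cultures nor animals. It had a pooled value of 0.20 on the log2 scale over the 25 of these genes that had several probe sets above background on both arrays.

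Cells make cholesterol from acetyl-CoA through mevalonate, farnesyl diphosphate, squalene and lanosterol. When sterol in the endoplasmic reticulum is scarce, the transcription factor SREBP2 (gene Srebf2) is released from its Insig anchor and raises the genes of this route together, while SREBP1 (Srebf1) acts mainly on fatty acid genes. When sterol is plentiful, oxysterols activate LXR, which raises Srebf1 and the exporters Abca1 and Abcg1, and macrophages pass cholesterol through these exporters to lipoproteins. SREBP factors bind sterol regulatory elements beside CCAAT and GC boxes, the sites of NF-Y and Sp1, and LXR binds direct repeats of a half-site.

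The promoters are shown because the sterol synthesis genes, which stood together in these data, mostly share 2 short motifs there. RefSeq promoters of build GRCm38.p6 (from 250 bases before to 50 after the annotated start) matched 39 of the 50 genes, among them Acat2, Nr1h2 and Soat1, which have no signal here. The stretches printed hold the 250 bases before the start, 5′ to 3′ on the gene's strand, and capitals mark CCAAT (or ATTGG on the other strand), GGGCGG (or CCGCCC) and TCACNCCAC. Hmgcs1 is shown for its TCACNCCAC match, Lss, Nsdhl and Insig1 as genes with higher ratios, Ebp as the exception of its arm, and Abca1 as the exporter with the lowest ratio.
Hmgcs1 (chr13:119690101-119690350, plus strand): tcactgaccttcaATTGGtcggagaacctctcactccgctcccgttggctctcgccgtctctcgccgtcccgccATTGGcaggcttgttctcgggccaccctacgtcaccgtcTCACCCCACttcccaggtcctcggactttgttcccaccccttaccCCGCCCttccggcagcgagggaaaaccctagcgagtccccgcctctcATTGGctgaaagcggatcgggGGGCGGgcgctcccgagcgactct
Insig1 (chr5:28071162-28071411, plus strand): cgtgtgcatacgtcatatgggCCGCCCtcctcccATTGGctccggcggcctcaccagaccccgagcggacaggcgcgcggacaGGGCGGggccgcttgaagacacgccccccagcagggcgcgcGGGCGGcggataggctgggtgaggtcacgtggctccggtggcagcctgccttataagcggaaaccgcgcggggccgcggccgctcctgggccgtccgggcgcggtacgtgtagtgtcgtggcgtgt
Lss (chr10:76531355-76531604, plus strand): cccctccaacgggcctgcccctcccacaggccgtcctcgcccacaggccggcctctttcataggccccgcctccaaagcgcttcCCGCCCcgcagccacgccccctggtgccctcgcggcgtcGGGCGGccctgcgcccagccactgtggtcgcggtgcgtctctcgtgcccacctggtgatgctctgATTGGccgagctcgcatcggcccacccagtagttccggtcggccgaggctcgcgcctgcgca
Nsdhl (chrX:72918271-72918520, plus strand): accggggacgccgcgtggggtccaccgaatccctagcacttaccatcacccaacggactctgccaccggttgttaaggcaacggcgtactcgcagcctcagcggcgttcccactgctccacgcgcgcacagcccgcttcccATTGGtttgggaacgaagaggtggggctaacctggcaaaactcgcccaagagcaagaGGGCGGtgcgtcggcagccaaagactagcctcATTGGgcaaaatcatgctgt
Ebp (chrX:8193513-8193762, minus strand): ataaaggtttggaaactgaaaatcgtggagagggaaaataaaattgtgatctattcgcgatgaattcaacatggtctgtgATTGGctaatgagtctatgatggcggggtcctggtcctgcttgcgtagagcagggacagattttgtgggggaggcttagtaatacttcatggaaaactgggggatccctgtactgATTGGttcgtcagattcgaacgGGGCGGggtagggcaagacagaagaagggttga
Abca1 (chr4:53159896-53160145, minus strand): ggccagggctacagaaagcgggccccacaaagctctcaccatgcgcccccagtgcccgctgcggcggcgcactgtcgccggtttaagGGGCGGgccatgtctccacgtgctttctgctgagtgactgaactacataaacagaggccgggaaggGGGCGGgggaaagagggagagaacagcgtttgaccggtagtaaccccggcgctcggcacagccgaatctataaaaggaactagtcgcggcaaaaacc
CCAAT was found in 16 of 17 promoters of sterol synthesis genes, 9 of 12 of fatty acid genes and 6 of 10 of export genes, against 42.4% of the 8585 genes measured here that have a promoter in the table and 41.1% of all 27025 genes in it. GGGCGG was found in 16 of 17, 8 of 12 and 6 of 10, against 68.8% of measured genes and 38.2% of all genes. Both motifs stood in 15 of 17 sterol synthesis promoters, 7 of 12 fatty acid promoters and 5 of 10 export promoters, against 29.4% of measured genes. A gene with several starts was counted once if any start matched, and both strands were searched. The sterol regulatory element in its looser form, TCACNCCAC, was in Hmgcs1 alone among the 39, and in 1.44% of all genes. The classical element, which lies over the same letters with an A before them and a C at the open place, was in none of the 39 and in 0.0999% of all genes. In Hmgcs1 the looser form lay 137 to 129 bases before the start, with CCAAT on the other strand at 237 to 233, 176 to 172 and 45 to 41 bases before it. The E-box CACGTG was in 4 of 17, 1 of 12 and 2 of 10, against 12.0% of measured genes. The exact direct repeat of AGGTCA with a spacer of 4 bases was in none of the 39 and in 4 of all 27025 genes. It was in 0 of the 8585 measured genes, so its absence from the members does not show that they lack LXR sites. Looser forms of the repeat were not searched. These matches are letters in a window and not measured binding. Ebp, which did not stand higher with its arm, has both CCAAT and GGGCGG, and of the 17 only Pmvk lacks GGGCGG and only Acat2 lacks CCAAT.

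The 2 arrays had equal trimmed means, and 40.0% (control) and 38.7% (CSF1) of their probe sets exceeded the background level of 157.26 signal units. This level was taken from genes of unrelated tissues. On the 18 hybridisation spikes the log2 ratio averaged -0.29 ± 0.13 (SD over spikes), and centring on them shifted the median of all measured genes to 0.28. The ratio of 3' to 5' signal of the Gapdh control probe sets was 1.03 for control and 1.40 for CSF1, and that of Actb was 1.35 and 1.38. Of 12 macrophage markers, 12 were measured, 10 had a log2 ratio below 0, their median was -0.16, and they summed to 221147 units in control and 188039 in CSF1. Of 9 fibroblast or mesothelial markers, 8 were measured, all 8 were above 0 with a median of 0.27, and the summed signal was 51076 and 64751 units. The mesothelial gene Msln was below background on both arrays, whereas the collagen genes Col1a2 and Col3a1 were between 18382 and 24045 units. Markers of T or NK cells (8 of 10 measured, summed 4314 and 2628 units), B cells (2 of 6, 725 and 585), neutrophils (3 of 9, 6854 and 6589) and adipocytes (1 of 5, 480 and 299) had summed signals that were lower on the CSF1 array. The sums of each cell type hold every marker with a probe set, also those below background. Single markers differed from these sums: S100a8, most of the neutrophil sum, read 4838 and 5487 units, and Cd3d read 295 and 375, both higher on the CSF1 array. Cd3g read 419 and 408. The 2 measured B cell markers went opposite ways. Cd79b read 216 units in control and 70, below background, in CSF1, and Pax5 read 70, below background, in control and 175 in CSF1. Cd3e, Cd79a, Ms4a1, S100a9, Elane, Adipoq and Lep were below background on both arrays. In RNA of a whole culture, fewer cells of a type and less RNA per cell cannot be told apart.

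Sterol synthesis genes were higher on the CSF1 array nearly throughout the route, by modest amounts. Of the 20 measured, 19 had a log2 ratio above 0, where 50.4% of the 10559 measured genes did, and 12 were higher by at least 0.32, the log2 fold threshold used here, where 16.3% of measured genes were. None was lower by that much, against 14.8% of measured genes, and 3 were at least 1.5-fold higher, against 5.36%. Over the whole list 1 member, Pnpla3, was at least 1.5-fold lower, against 4.84% of measured genes. The median log2 ratio was 0.38, or 1.30-fold, with a range from -0.07 to 0.83, and the median over all measured genes was 0.0028. Counted by probe set instead of by gene, 32 of the arm's 34 probe sets above background on both arrays were above 0, and 18 were higher by 0.32 or more, against 48.8% and 15.2% of all 16199 such probe sets. Fibroblast or mesothelial markers were higher on the same array (8 of 8 measured, median 0.27), and their part in the result was not tested. No member reached 2-fold, which 0.777% of measured genes did upward and 0.606% downward.

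**Figure D1:**
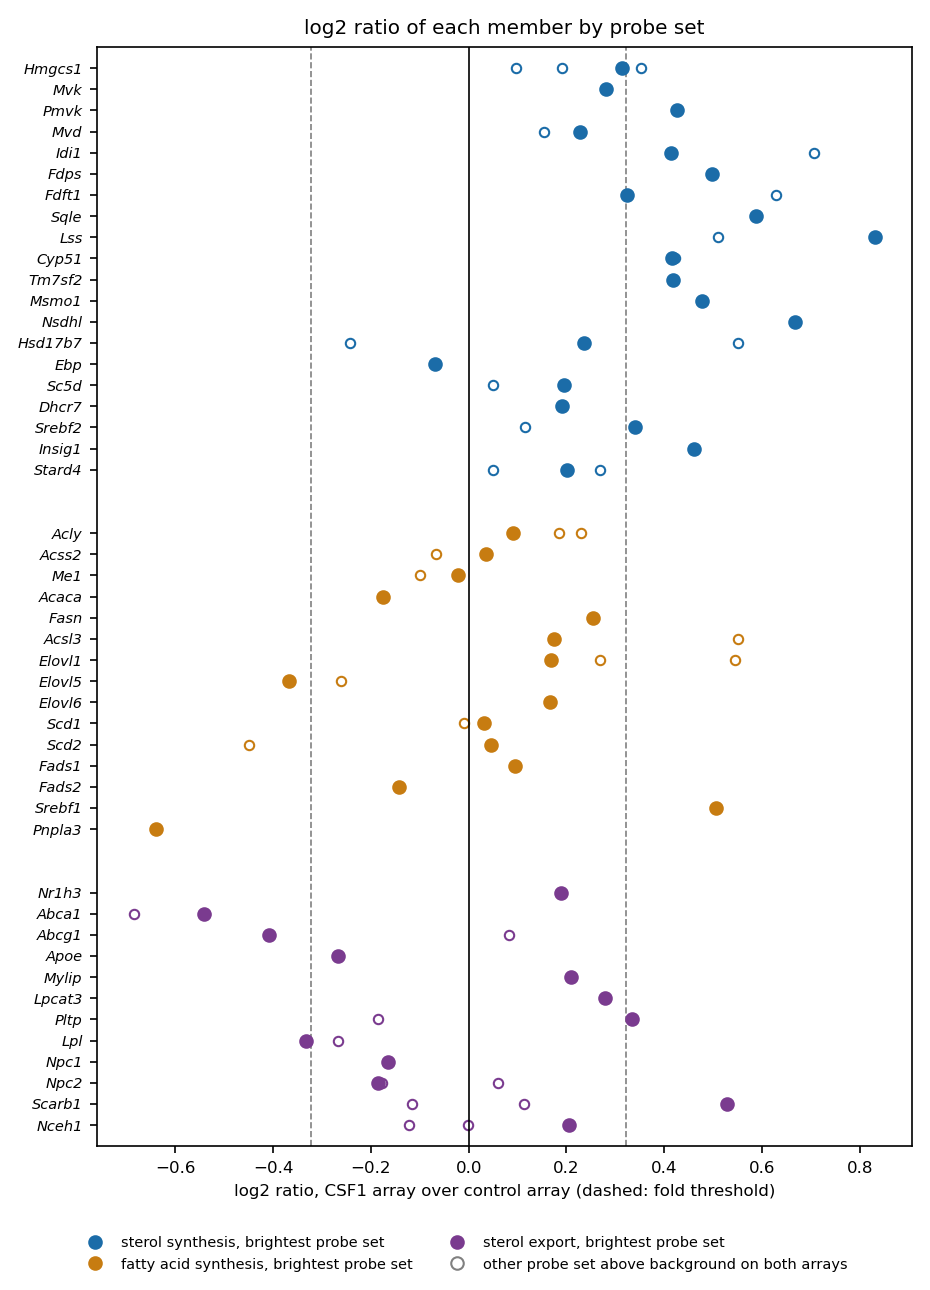
Log2 ratios (CSF1 array over control array, horizontal axis) are plotted for each of the 47 genes, grouped by arm and ordered by step, with filled points for the brightest probe set and open points for its other probe sets that exceeded background in both samples, and dashed lines at 0.32 to each side. The filled points of sterol synthesis lie right of 0 except Ebp, while those of the other arms lie on both sides.

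All 7 measured early enzymes, from acetyl-CoA to squalene, were above 0 on their brightest probe set, where 50.4% of measured genes were. Their median log2 ratio was 0.32. Hmgcs1, the cytosolic HMG-CoA synthase that commits acetyl-CoA to the mevalonate route, read 8435 units in control and 10478 in CSF1, 1.24-fold higher. Over 4 probe sets above background the ratio averaged 0.24 ± 0.12 (log2, SD), and none was below 0. Fdps, which makes farnesyl diphosphate, the branch point to sterols and prenylated proteins, read 3832 units on the control array and 5409 in CSF1, 1.41-fold higher. Idi1, the isomerase of the isopentenyl unit, read 2474 and 3295 units, and over 2 probe sets the ratio averaged 0.56 ± 0.21 (log2, SD). Fdft1, squalene synthase, which takes the first step that leads only to sterols, read 2228 and 2790 units, a log2 ratio of 0.32, and its other probe set gave 0.63. The kinases and the decarboxylase of mevalonate stood in the same direction. Pmvk, phosphomevalonate kinase, read 436 and 586 units (log2 ratio 0.43), and Mvd, the decarboxylase, read 954 and 1118 units (0.23). Mvk, mevalonate kinase, was at 203 and 247 units, near the background level, and its other probe set read 182 and 133 units and pointed the other way.

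The later enzymes, from squalene to cholesterol, held the highest ratios of the list and also its exception. Of 10 measured, 9 were above 0 (50.4% of measured genes were) and 6 were higher by 0.32 or more (16.3% were), with a median log2 ratio of 0.42. Lss, lanosterol synthase, which closes the sterol rings, read 509 units on the control array and 905 in CSF1, 1.78-fold higher. Over 2 probe sets above background the ratio averaged 0.67 ± 0.23 (log2, SD), while another read 183 and 115 units, below background on the CSF1 array, and pointed the other way. The brightest one has a name of the kind given to probes that may match further transcripts. Nsdhl, the dehydrogenase that takes part in removing methyl groups from the sterol nucleus, read 1241 and 1972 units, 1.59-fold higher on its single probe set. Sqle, squalene epoxidase, a rate-limiting enzyme of the route, read 2612 and 3928 units, 1.50-fold higher on its single probe set. These 3 genes were the members of the whole list that were at least 1.5-fold higher. Msmo1, the methylsterol monooxygenase that acts just before Nsdhl, read 5294 and 7367 units, 1.39-fold higher. Cyp51, lanosterol demethylase, read 2006 and 2676 units, and over 2 probe sets the ratio averaged 0.42 ± 0.0044 (log2, SD), the closest pair among the sterol enzymes. Tm7sf2, a sterol reductase, read 167 and 224 units (log2 ratio 0.42), close to background on the control array. With a stricter background level of 200.47 units its ratio was a bound of 0.15 relative to all measured genes.

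The remaining enzymes between squalene and cholesterol had smaller ratios on their brightest probe sets. Hsd17b7, a ketosteroid reductase that completes the removal of the methyl groups, read 939 and 1105 units, and its 3 probe sets disagreed in sign, averaging 0.18 ± 0.40 (log2, SD). Ebp, the sterol isomerase, read 2941 units on the control array and 2805 in CSF1, a log2 ratio of -0.07, so the 2 arrays differed by 1.05-fold. Sc5d, lathosterol desaturase, read 3572 and 4087 units, and over 2 probe sets the ratio averaged 0.12 ± 0.10 (log2, SD). Dhcr7, which performs the last reduction to cholesterol, read 905 and 1032 units (0.19). The ratios of Ebp, Sc5d and Dhcr7 were thus no larger than the pooled SD between probe sets of 0.20, a spread within the same 2 arrays. Over the 3624 genes with several probe sets above background on both arrays, that SD was 0.28.

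Among the regulators, Insig1, Srebf2 and the sterol carrier Stard4 were higher, while the other genes of SREBP processing lay near 0. Insig1, the membrane anchor that holds SREBP in the endoplasmic reticulum and is itself an SREBP target, read 1269 and 1746 units, 1.38-fold higher on its single probe set. Srebf2, the SREBP2 gene, read 644 and 815 units, and over 2 probe sets the ratio averaged 0.23 ± 0.16 (log2, SD). Stard4, a cytosolic sterol transfer protein and SREBP2 target, read 973 and 1118 units, and over 3 probe sets the ratio averaged 0.17 ± 0.11 (log2, SD). Its brightest probe set gave 0.20, no larger than the pooled SD between probe sets. All 3 genes were higher on the CSF1 array on every probe set above background. Scap, the escort of SREBP, read 567 and 547 units, a log2 ratio of -0.05, and Insig2, the second anchor, read 1244 and 1188 units, a log2 ratio of -0.07, with its 3 probe sets all below 0. The proteases that cut SREBP, Mbtps1 and Mbtps2, had log2 ratios of 0.13 and -0.02. These 4 genes were outside the list of 50 and are named after their values were seen.

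**Figure D2:**
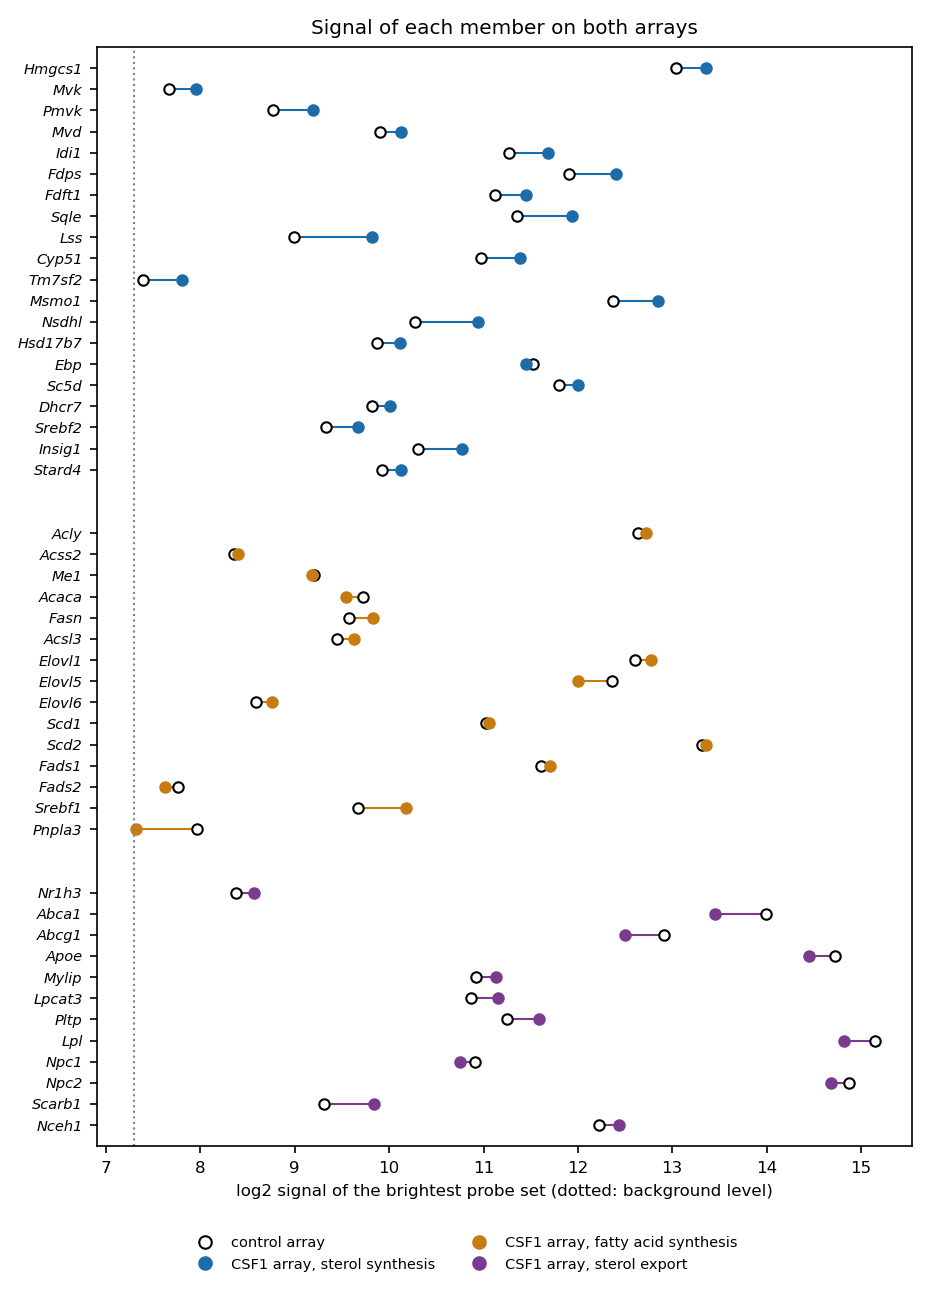
The log2 signal of each gene's brightest probe set (horizontal axis) is plotted for control (open points) and under CSF1 (filled points), with a dotted line at the background level of 157.26 units. The connecting lines run to the right for 19 of 20 sterol synthesis genes, whereas Abca1, Abcg1, Apoe, Lpl and Npc2 run to the left.

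Fatty acid synthesis genes did not stand higher as a group. Of 15 measured, 10 were above 0, where 50.4% of measured genes were, and the median log2 ratio was 0.05, with a range from -0.64 to 0.51. Higher by 0.32 or more was 1 member, Srebf1, against 16.3% of measured genes, and lower by 0.32 or more were 2, Elovl5 and Pnpla3, against 14.8%. Of the arm's 25 probe sets above background on both arrays, 15 were above 0 and 10 below, where 48.8% of all such probe sets were above 0. The median of sterol synthesis exceeded that of fatty acid synthesis by 0.33 on the log2 scale.

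Srebf1, the gene of SREBP1 and a target of LXR as well as of SREBP itself, read 817 units on the control array and 1160 in CSF1, 1.42-fold higher on its single probe set. Its name is of the kind given to probes that match several transcripts, and the 2 SREBP1 isoforms cannot be told apart on it. The enzymes that supply acetyl-CoA and NADPH were within 0.32 of 0. Acly, ATP citrate lyase, read 6356 and 6767 units, and over 3 probe sets the ratio averaged 0.17 ± 0.07 (log2, SD). Acss2, acetyl-CoA synthetase, read 329 and 337 units, and Me1, the cytosolic malic enzyme, read 588 and 580 units, with log2 ratios of 0.04 and -0.02. The 2 enzymes that build the chain were on opposite sides of 0. Fasn, fatty acid synthase, read 762 and 909 units, a log2 ratio of 0.25, and Acaca, acetyl-CoA carboxylase, read 844 and 747 units, a log2 ratio of -0.18, each on the sole probe set above background.

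Elongases differed among themselves. Elovl5, which extends polyunsaturated fatty acids, read 5274 units on the control array and 4087 in CSF1, 1.29-fold lower, and over 2 probe sets the ratio averaged -0.31 ± 0.08 (log2, SD). Elovl1, which makes very long saturated chains, read 6226 and 6993 units, and over 3 probe sets the ratio averaged 0.33 ± 0.20 (log2, SD), all above 0. Elovl6, which extends palmitate, read 386 and 434 units, a log2 ratio of 0.17. Acsl3, an acyl-CoA synthetase of lipid droplets, read 698 and 788 units (0.18), and its other probe set gave 0.55.

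The desaturases were near 0 on their brightest probe sets. Scd1, stearoyl-CoA desaturase and a target of both SREBP1 and LXR, read 2084 and 2129 units, and over 2 probe sets the ratio averaged 0.01 ± 0.03 (log2, SD). Scd2, its close paralog, read 10179 and 10514 units, a log2 ratio of 0.05, while another probe set read 3794 and 2780 units, a log2 ratio of -0.45. Fads1 and Fads2, the desaturases of polyunsaturated fatty acids, had log2 ratios of 0.10 and -0.14, Fads1 at 3118 and 3332 units and Fads2 at 218 and 197. A second probe set of Fads2 was below background on the control array at 136 units and stood at 251 on the CSF1 array. Pnpla3, a lipid-droplet lipase gene that SREBP1 and carbohydrate sensing raise in liver, read 249 and 160 units, 1.56-fold lower and the lowest ratio of the list. Its CSF1 signal lay just above background, and with the stricter background level the ratio was a bound of -0.32 relative to all measured genes.

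**Figure D3:**
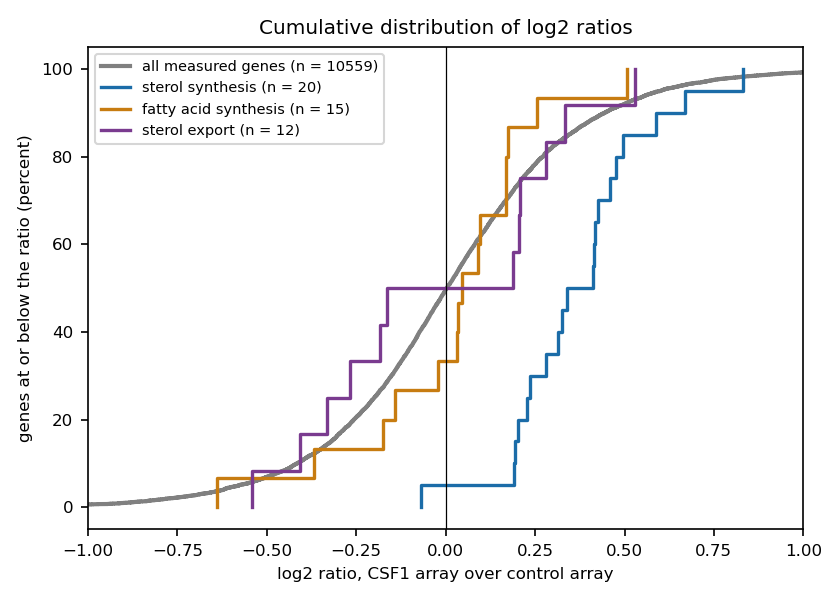
The percentage of genes at or below each log2 ratio of CSF1 over control is plotted for the 3 arms and for all 10559 measured genes, with the horizontal axis limited to ratios between -1 and 1. The sterol synthesis curve lies to the right of the grey curve with a median of 0.38, and the fatty acid and export curves cross it near 0.

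Sterol export genes went both ways. Of 12 measured, 6 were above 0, where 50.4% of measured genes were, and 6 below. Their median log2 ratio was 0.01, with a range from -0.54 to 0.53. Lower by 0.32 or more were 3, Abca1, Abcg1 and Lpl, against 14.8% of measured genes, and higher by 0.32 or more were 2, Scarb1 and Pltp, against 16.3%. Counted by probe set, 9 of 23 were above 0 and 14 below, with a median of -0.12, where 48.8% of all such probe sets were above 0. The median of sterol synthesis exceeded that of export by 0.36 on the log2 scale.

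The exporters were lower on the CSF1 array on their brightest probe sets, as were the bright control probe sets of Actb and Gapdh. Abca1, the transporter that loads cholesterol and phospholipid onto apolipoprotein A-I, read 16299 units in control and 11204 in CSF1, 1.45-fold lower. Over 3 probe sets the ratio averaged -0.59 ± 0.08 (log2, SD), and all 3 were below 0. That spread is among probe sets of the same 2 arrays and does not measure differences between cultures. Abcg1, which passes cholesterol to mature high-density lipoprotein, read 7706 and 5808 units, 1.33-fold lower, but its other probe set read 442 and 469 units, a log2 ratio of 0.08. Apoe, the apolipoprotein that macrophages secrete and that accepts cholesterol, read 26997 and 22425 units, 1.20-fold lower on its single probe set. Lpl, lipoprotein lipase, another LXR target of macrophages, read 36329 and 28849 units, and over 2 probe sets the ratio averaged -0.30 ± 0.05 (log2, SD).

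Other LXR targets were higher. Pltp, phospholipid transfer protein, read 2434 and 3068 units, 1.26-fold higher, but its other probe set gave a log2 ratio of -0.18. Lpcat3, which remodels membrane phospholipids, read 1872 and 2272 units (log2 ratio 0.28), and Mylip, the ubiquitin ligase that degrades lipoprotein receptors, read 1945 and 2247 units (0.21), each on a single probe set. The 7 LXR targets therefore had 4 genes below 0, where 49.6% of measured genes were, and 3 above, with a median log2 ratio of -0.27. Nr1h3, the gene of LXR alpha, read 332 and 378 units, a log2 ratio of 0.19 on a single probe set, below the pooled SD between probe sets of 0.20.

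Genes that move cholesterol out of lysosomes and lipid droplets were near 0 or disagreed between probe sets. Npc1 and Npc2, which together release cholesterol from lysosomes, read 1927 and 1719 units and 29953 and 26353 units, with log2 ratios of -0.17 and -0.18. Nceh1, a cholesteryl ester hydrolase of macrophages, read 4794 and 5526 units, and over 3 probe sets the ratio averaged 0.03 ± 0.17 (log2, SD). Scarb1, the scavenger receptor for high-density lipoprotein, read 634 and 916 units, 1.44-fold higher, but over 3 probe sets the ratio averaged 0.18 ± 0.33 (log2, SD) and 1 of them was below 0.

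Several of the lower ratios of the export arm coincided with high signals. Among the 517 measured genes with a mean log2 signal above 13, the median log2 ratio was -0.09, against 0.02 among the 1849 genes between 11 and 13. Abca1, Apoe, Lpl and Npc2 are in the first class. Hmgcs1 and Scd2 are in it too, with log2 ratios above 0, at 0.31 and 0.05. After a loess correction that removes this dependence on level, Apoe was at -0.12, Lpl at -0.15 and Npc2 at -0.02 on the log2 scale. After quantile normalization Lpl was at -0.07 relative to all measured genes, so under both corrections it was no longer lower by 0.32 or more. After the loess correction Abca1 remained at -0.45 and Abcg1 at -0.39, and the sterol synthesis median was 0.37. The loess values in this paragraph were not centred on all measured genes. Macrophage markers were lower on the same array too (10 of 12 below 0, median -0.16), and their part in these ratios was not tested. The control probe sets of Actb had log2 ratios from -0.33 to -0.29, and those of Gapdh from -0.74 to -0.30. How they relate to the exporters' ratios was not tested.

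**Figure D4:**
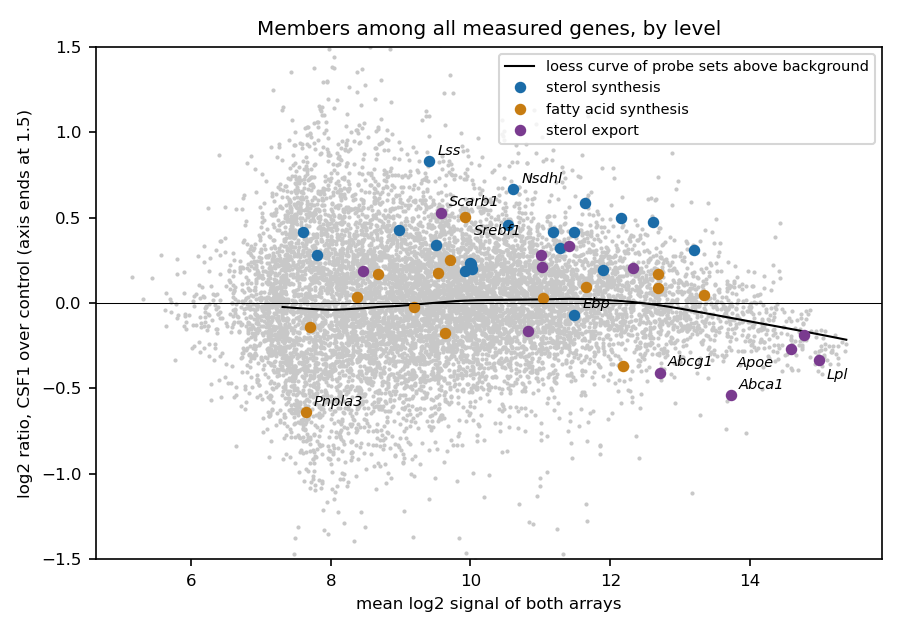
The log2 ratio (vertical axis, ending at 1.5 in each direction) is plotted against the mean log2 signal of both arrays for all measured genes (grey, ratios floored at background and signals as deposited) and for the 3 arms (coloured), with the loess curve of probe sets above background in black. The curve bends below 0 at the highest signals, where Apoe and Lpl lie close to it and Abca1 lies below it.

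Further genes of the same pathways, listed by function, gave a mixed picture. Of 10 measured genes beside the sterol route, 5 were above 0 (50.4% of measured genes were) and 3 were higher by 0.32 or more (16.3%). None was lower by 0.32 or more (14.8%), and the median log2 ratio was 0.05. Aacs, which makes acetoacetyl-CoA from ketone bodies for sterol synthesis, read 387 and 583 units (log2 ratio 0.59), and its other probe set gave 0.41. Tmem97, a sterol-responsive membrane protein that binds Npc1, read 811 and 1171 units (0.53). Ggps1, which makes geranylgeranyl diphosphate, read 449 and 608 units (0.44), but 2 of its 3 other probe sets were below 0.

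Of 13 measured genes beside fatty acid synthesis, 8 were above 0 (50.4% of measured genes were), 2 were higher by 0.32 or more (16.3%) and 1 was lower by 0.32 or more (14.8%), with a median log2 ratio of 0.0030. Mcat, the malonyl transferase of mitochondrial fatty acid synthesis, read 207 and 362 units (log2 ratio 0.81), and Gpam, a glycerol-phosphate acyltransferase, read 1325 and 999 units (-0.41). Dgat2, a triglyceride-forming enzyme, was at background on the control array and at least 1.41-fold higher, but its other probe set was lower on the CSF1 array. Of 14 measured genes beside export, 3 were above 0 and 11 below, where 49.6% of measured genes were below, with 3 lower by 0.32 or more (14.8% of measured genes were), 1 higher by 0.32 or more (16.3%) and a median log2 ratio of -0.09. Rxrb, a partner receptor of LXR, read 807 and 434 units, a log2 ratio of -0.89 on its single probe set. Apoc1, an LXR-induced apolipoprotein, read 246 units on the control array and was at background on the CSF1 array, at least 1.56-fold lower. Lrp1, a receptor for apolipoprotein E remnants, named after its value was seen, was the third of these at a log2 ratio of -0.51. Ch25h, which makes the oxysterol 25-hydroxycholesterol and is induced by interferon, stood apart at 786 and 1534 units, a log2 ratio of 0.96 on its single probe set.

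**Figure D5:**
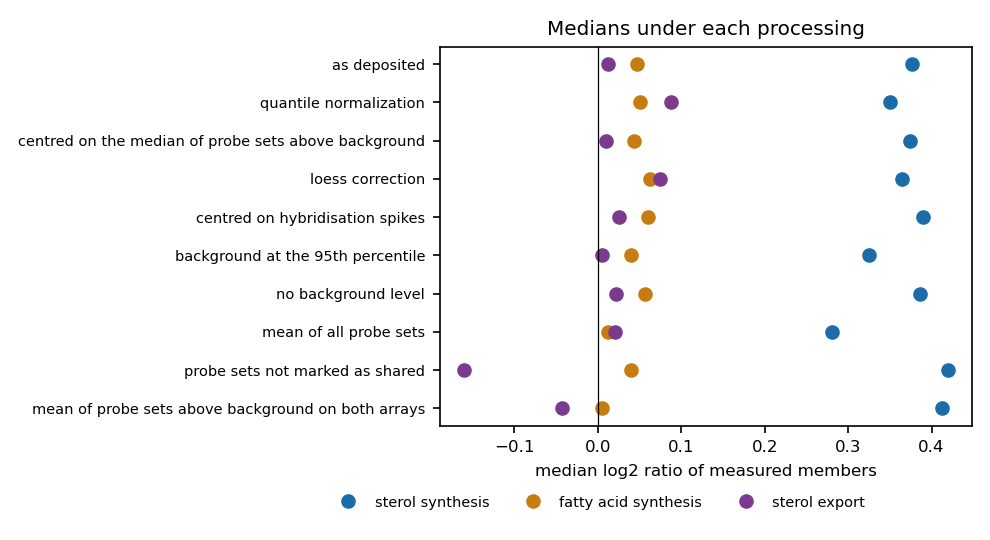
The median log2 ratio of the measured members of each arm (horizontal axis) is plotted under each way of processing the same 2 arrays (rows), centred on that setting's median over measured genes in every row but the first. The sterol synthesis median lies between 0.28 and 0.42 in all rows, to the right of both other arms, whose medians lie between -0.16 and 0.09.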

How the data were processed

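RNA of 2 samples was hybridised to Affymetrix Mouse Genome 430 2.0 arrays, 1 per group by the labels. The authors deposited 1 linear intensity per probe set and array. The series' design text names GeneSpring 6.2 for their data analysis. The summarization method and detection calls are not given in the sources used here. Of 45101 probe sets, 34958 carried 1 gene symbol, 932 several and 9211 none, from GEO's platform annotation, and all 47 symbols used matched a RefSeq gene table (GRCm38.p6) by Entrez ID.

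No further scaling was applied before log2. Lower values were raised to a background level, the 90th percentile over 143 probe sets that belong to 82 genes specific to unrelated tissues. Genes above it on at least 1 array (10559) counted as measured. Each gene's CSF1 signal was divided by its control signal and expressed as log2, with no test, p-value or standard error. Beside each array's own signals, every member was reported, in full for the 4 largest absolute ratios per arm, members with the opposite sign to their arm median, and the transcription factor genes, and up to 3 other pathway genes per arm. The members, gene lists and thresholds were chosen with earlier results of these data known. Promoters came from RefSeq. The procedure was tested on simulated data.

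Other settings tried were loess (span 0.3), quantile normalization, centring on the median or the spikes, a background level at the 95th percentile or none, the mean of all probe sets, probe sets with names not marked as shared (_s_at, _x_at, _a_at), folds of 1.5 and 2 and, chosen after seeing the data, the mean of probe sets above background on both arrays. The ending _a_at, counted here as shared, is given to probe sets that match several transcripts of 1 gene. The software was Python 3.11.15 with pandas 2.3.3 and numpy 2.4.6, statsmodels 0.14.6 for loess, scipy 1.17.1, and matplotlib 3.10.9 for plots.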

Additional observations from a re-analysis of the deposited data

How the results depend on the processing

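Each setting's values were centred on its own median over the measured genes. For spike centring this takes out the shift of 0.28 again, so its values here are not on the scale of the spikes. Median centring, spike centring and no background level add 1 constant to all 47 genes, so these 3 settings say nothing about the arms' differences. Under the other 6 settings, where each gave a value, 38 of 47 genes kept their sign, comprising 17 of 20 sterol synthesis, 10 of 15 fatty acid and 11 of 12 export genes. The median of sterol synthesis was within 0.1 of its value in those 6 settings, as was that of fatty acid synthesis. Among those 6, the stricter background level also adds 1 constant to all genes but Tm7sf2, Fads2 and Pnpla3, so it says little about signs. Of the 20 sterol synthesis genes 16 were above 0 for the mean of all probe sets. Without probe sets marked as shared, 9 export genes were measured and their median was -0.16. Apoe, Nr1h3 and Scarb1 dropped out of this setting, and the brightest probe set of each has the ending _a_at. The difference of the sterol synthesis and export medians was 0.26 after quantile normalization, 0.26 for the mean of all probe sets and 0.58 without probe sets marked as shared. The number of export genes higher by 0.32 or more was 1 after quantile normalization, after loess and without probe sets marked as shared, and 0 for the mean of all probe sets and for the mean of probe sets above background on both arrays. Export genes lower by 0.32 or more numbered 1 for both means, and 2 after quantile normalization, loess and spike centring, where Lpl was at -0.07, -0.16 and just inside 0.32. The mean of all probe sets put 1 sterol synthesis gene, Fdft1, lower by 0.32 or more, at -0.33, because 2 probe sets below background on both arrays enter it. The same setting put 4 of 13 measured fatty acid genes higher by 0.32 or more and 3 lower, Scd2 at -1.32, Fads1 at -0.53 and Pnpla3 at -0.64. Probe sets below background on both arrays also enter the means of Scd2 and Fads1, and those of Acsl3, Elovl1 and Elovl6, which are among the 4 higher. Shares over all measured genes at 0.32 were not computed for processings other than the deposited values. For the mean of probe sets above background on both arrays, 2 fatty acid genes were higher by 0.32 or more and 1 lower, and 1 was lower with the stricter background level. At 1.5-fold, 3 sterol synthesis genes were higher, 0 fatty acid genes higher and 1 lower, and 0 export genes higher and 0 lower. At 2-fold all 3 arms had 0 in both directions. The cause of the other shifts was not tested. No paired analysis was possible because each group has 1 array. Signals near background, as for Mvk, Tm7sf2, Fads2 and Pnpla3, limit what their ratios show.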

Other observations

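Several genes gave opposite ratios on different probe sets of the same array pair, so that their direction depended on the probe set chosen. Of the members with a further probe set above background on both arrays, the further probe sets all had the sign of the brightest one for 9 of 10 sterol synthesis genes, 5 of 8 fatty acid genes and 2 of 7 export genes. The share over the 3624 genes with several such probe sets was not computed, so these counts do not compare the arms. For Abcg1 the log2 ratios were -0.41 and 0.08, for Pltp 0.33 and -0.18, for Scd2 0.05 and -0.45, and for Hsd17b7 the 3 ran from -0.24 to 0.55. Scarb1 had 0.53, 0.11 and -0.12, and Nceh1 had 0.21 on its brightest probe set and -0.12 on another. With the probe sets above background on both arrays averaged, relative to all measured genes, Scd2 was at -0.21, Abcg1 at -0.17, Pltp at 0.07 and Scarb1 at 0.17. Among the 7 such export genes, Abca1 and Lpl had probe sets that all pointed the same way.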
